A study of Mus musculus with 12 samples.

Results

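The genes described are those that encode the proteasome and its classical activators and inhibitor. They were chosen by symbol, as *Psma*, *Psmb*, *Psmc*, *Psmd*, *Psme* or *Psmf* followed by a number, with 4 matching symbols left out, namely the immunoproteasome genes *Psmb8*, *Psmb9* and *Psmb10* and the meiotic recombination gene *Psmc3ip*. This gave 42 of the 21859 genes measured. RNA was sequenced from GFRa1+/KIT- spermatogonia, the fraction of germ cells that holds the spermatogonial stem cells, in 5 control and 7 cryptorchid libraries. The cells were sorted from GFRa1-EGFP mice of 8 to 10 weeks, 10 days after the left testis had been moved to the abdominal wall, and the right testis of operated animals was the control. The labels give the genotype of the groups as WT and Cryptorchid, and the animals of both groups carried the GFRa1-EGFP reporter. Control testes were digested for 9 min at 32°C and cryptorchid testes for 9 min at 37°C, so that the digestion temperature and the position of the testis cannot be told apart. RNA was taken from about 1000 cells, and about 200 cells went into each Smart-seq2 library. No molecular identifiers are used in that protocol. The labels do not tie libraries to animals, and *P*-values measure the spread between libraries.

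Proteins marked with ubiquitin chains are degraded by the proteasome. Its core particle is a barrel of outer rings of α subunits, which form the gate, and inner rings of β subunits, of which β1, β2 and β5 cut peptide bonds. A regulatory particle with a ring of ATPases at its base and a lid that holds the deubiquitinase Rpn11 binds, unfolds and threads the substrates, and the activators PA28 and PA200 can cap the core instead. In mammals the constitutive subunit genes are known to be induced together by the transcription factor Nrf1, encoded by *Nfe2l1*, through antioxidant response elements. In the testis, spermatocytes and spermatids use α4s, encoded by *Psma8*, in place of α4.

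The promoters of the subunit genes were read as the 250 bases before the first RefSeq start on GRCm38.p6, where 35 of the 42 genes had an entry. Shown are *Psmf1*, the member that passed the test between the groups before but not after adjustment, and *Psmb5*, a catalytic subunit gene with a response element core. Also shown are *Psmc1* and *Psmd12*, which held more than one copy of the motif whose share differed most from that of all promoters. Capitals mark matches, searched on both strands, to the core of the antioxidant response element (TGANNNNGC), the CCAAT box (CCAAT) and the GC box (GGGCGG). They also mark, on both strands, CGGAAG, a form of the ETS factor site that is called the ETS core below. Matches of different motifs may overlap, and a match is a description of the letters. The sequences lie at chr2:151741311-151741560 on the minus strand for *Psmf1*, chr14:54617996-54618245 on the minus strand for *Psmb5*, chr12:100109952-100110201 on the plus strand for *Psmc1* and chr11:107479278-107479527 on the plus strand for *Psmd12*.
Psmf1: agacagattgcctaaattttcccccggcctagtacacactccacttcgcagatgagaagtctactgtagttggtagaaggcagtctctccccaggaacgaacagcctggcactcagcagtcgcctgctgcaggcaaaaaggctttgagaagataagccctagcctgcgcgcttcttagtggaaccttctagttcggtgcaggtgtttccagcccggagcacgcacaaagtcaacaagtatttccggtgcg
Psmb5: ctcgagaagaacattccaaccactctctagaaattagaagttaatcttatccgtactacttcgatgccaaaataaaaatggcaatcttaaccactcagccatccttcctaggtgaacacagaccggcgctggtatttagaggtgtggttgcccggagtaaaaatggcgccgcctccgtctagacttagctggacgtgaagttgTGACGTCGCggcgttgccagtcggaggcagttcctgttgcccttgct
Psmc1: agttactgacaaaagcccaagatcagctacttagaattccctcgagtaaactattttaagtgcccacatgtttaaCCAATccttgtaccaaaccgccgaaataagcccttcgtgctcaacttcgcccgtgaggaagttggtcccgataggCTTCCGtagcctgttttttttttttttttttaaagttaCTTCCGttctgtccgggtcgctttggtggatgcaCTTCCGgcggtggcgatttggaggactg
Psmd12: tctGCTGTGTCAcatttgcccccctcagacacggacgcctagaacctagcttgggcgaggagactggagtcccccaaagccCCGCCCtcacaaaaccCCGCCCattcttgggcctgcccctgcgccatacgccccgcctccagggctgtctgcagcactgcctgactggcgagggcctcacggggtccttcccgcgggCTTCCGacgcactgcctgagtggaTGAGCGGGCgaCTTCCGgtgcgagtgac

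The ETS core was found in 17 of the 35 promoters of subunit genes, or 48.6%, against 17.7% of all 16802 promoters of the same length. It stood in every lid promoter read and in those of the base subunit genes *Psmd1*, *Psmd2* and *Psmd4*. Of the base ATPase genes, *Psmc1*, *Psmc2* and *Psmc6* held it, while *Psmc4* and *Psmc5* did not. Among the core genes only *Psma4*, *Psmb3* and *Psmb11* held it, and among the activators only *Psme3* and *Psme4*. GC boxes were held by 57.1% of the subunit promoters against 44.0% of all. The antioxidant response element core was in 31.4% against 35.2%, and the CCAAT box in 37.1% against 36.3%, both close to the share of all promoters. With letters as common as TGANNNNGC, this comparison cannot tell whether working response elements are more frequent in subunit promoters. None of the 4 motifs had a match in the window of *Psmf1*, which says only that these letters are not in these 250 bases. Near its end it holds TTTCCG, which differs from CTTCCG, the ETS core on the other strand, in the first letter only. Other forms of the ETS site were not searched. The window of *Psmf1* ends at 151741560, inside the gene as annotated by GENCODE, whose outermost start on the minus strand is at 151744186. The bases before that start were not read. The windows of *Psmb5*, *Psmc1* and *Psmd12* reach the outermost annotated start of their gene.

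The depth ranged from 4511730 to 24345368 reads on genes in control libraries, with a median of 7603202, and from 3306771 to 20027902 in cryptorchid libraries, with a median of 4611830. Replicates 1 to 3 of both groups differed from the later replicates in the share of reads that fell on genes, at 74.5 to 94.0% against 94.8 to 99.9%, and results are also given within these sets. The summed level of 12 genes of undifferentiated spermatogonia was 1514 to 2172 RPM (reads scaled to a common library total) in control libraries. In cryptorchid libraries it was 1715 to 2402 RPM. All 12 had reads in every library, though *Id4* was at only -0.35 log2 RPM in control replicate 3. Of these 12, *Nanos3* was lower in cryptorchid at limma *P* under 0.05, with a log2 fold change of -0.97. Of 6 genes of differentiating spermatogonia, *Dnmt3b* was lower, at -1.20, and *Stra8* higher, at 1.09. Of 12 spermatocyte genes, *Sycp2* was higher, at 0.74. The sum of 9 spermatid genes was 511 to 2770 RPM in control and 14.5 to 1854 RPM in cryptorchid libraries, with 4 of the 9 lower in cryptorchid at *P* under 0.05, and that of 12 spermatocyte genes was 884 to 2256 and 901 to 2608 RPM. Sertoli genes summed to at most 87.5 RPM, and endothelial, macrophage, Leydig, peritubular and lymphocyte genes to at most 47.8 RPM in any library. Of these, endothelial genes summed to 10.0 to 28.4 RPM in control and 19.2 to 46.8 RPM in cryptorchid, and *Cdh5*, *Tie1* and *Vwf*, 3 of the 5 endothelial genes, were higher in cryptorchid at *P* under 0.05, as were *Mrc1* of 5 tested macrophage genes and *Des* of 4 tested peritubular genes. Their part in the results below was not tested. All 9 spermatid and all 12 spermatocyte genes had reads. In bulk libraries such as these, fewer cells of a type and less RNA per cell cannot be told apart.

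Of the 42 genes, 41 passed the filter on low values, a log2 of the mean RPM above -1. The exception was *Psmb11*, the catalytic β5t of the thymus, which had no read in 9 of 12 libraries and at most 13 reads in one. Scaled to the length of the merged exons, the level over all 12 libraries was highest for *Psmb2*, which encodes β4, at 8.29 ± 0.54 log2 RPM per kb (SD, n = 12), for *Psma6*, which encodes α1, at 8.26 ± 0.73, and for *Psma5*, which encodes α5, at 7.86 ± 0.74. The lowest levels were those of *Psmd9*, which encodes the assembly chaperone p27, at 2.56 ± 0.77, of *Psmd3*, which encodes the lid subunit Rpn3, at 3.63 ± 0.97, and of *Psmf1*, which encodes the inhibitor PI31, at 3.67 ± 0.65. With the length of the longest transcript *Psmd9*, *Psmd3* and *Psmf1* were at 4.02, 4.41 and 4.43 and *Psmd9* and *Psmd3* were still the lowest expressed members. At the top, *Psmb2* and *Psma6* stayed the highest, while *Psmb4*, *Psmb6* and *Psme2* passed *Psma5*, which moved from place 3 to place 6. Most neighbours in the order could not be separated, because 36 of the 41 adjacent pairs differed by less than the SD of their difference between libraries.

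**Figure D1:**
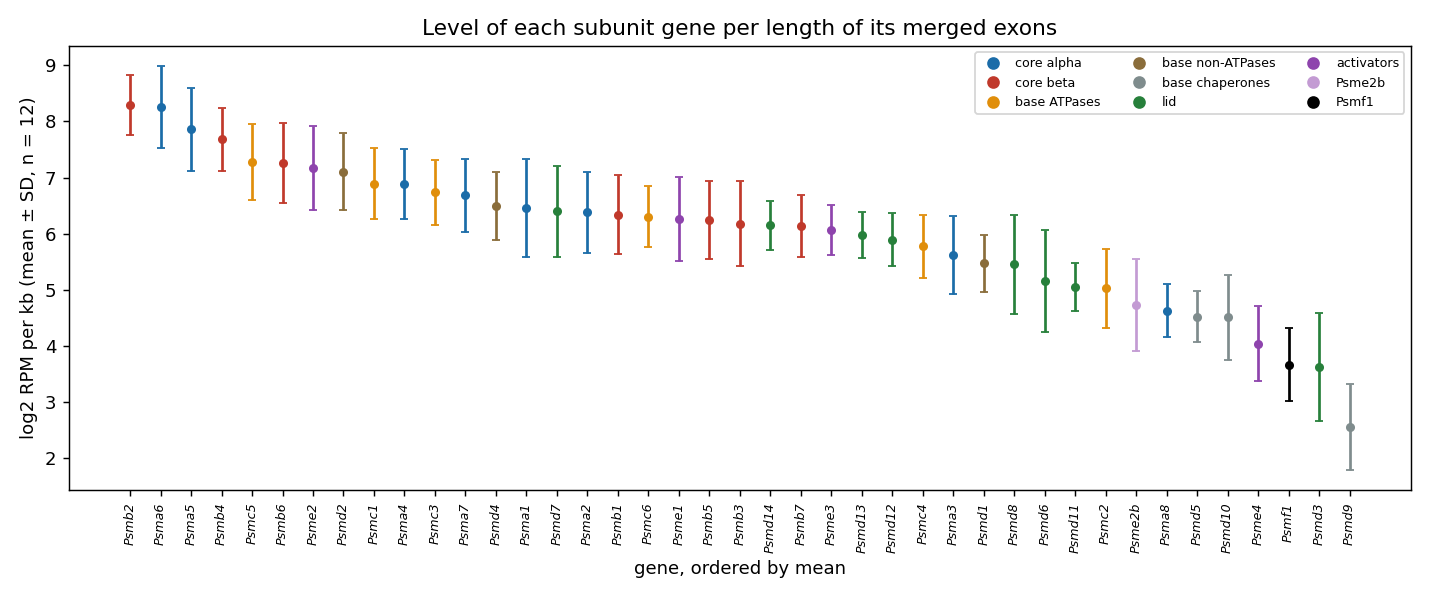
Level of each of the 41 expressed subunit genes per kb of merged exon, ordered by mean, with log2 RPM per kb on the y axis. Points are means over 12 libraries, bars are 1 SD, and colours are subcomplexes; the scale runs from *Psmb2* at 8.29 down to *Psmd9* at 2.56.

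Levels per length of the merged exons were lowest in the base chaperones and the inhibitor gene, with the activators between the lid and the core. Medians of the subcomplexes were not computed with the longest transcript, so their order holds for merged exons only. The median over genes was 6.68 log2 RPM per kb for the 7 α genes of the standard core, 6.34 for the 7 expressed β genes, 6.52 for the 6 ATPases, 6.49 for the 3 other base subunits and 5.67 for the 8 lid genes. The 3 base chaperones had a median of 4.51 and the 4 activators of 6.16. *Psma8* was at 4.63 ± 0.48 against 6.68 ± 0.65 for its counterpart *Psma7*, a difference in level per length of the same libraries. With the longest transcript they were at 5.01 and 7.70.

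One library of each group stood apart over nearly all members. The median of the 41 genes was 8.11, 7.98, 6.73, 8.27 and 8.09 log2 RPM in control replicates 1 to 5, and 7.78, 7.69, 6.75, 7.70, 7.65, 7.93 and 7.91 in cryptorchid replicates 1 to 7. Replicate 3 was the lowest of its group in both groups, and all other cryptorchid libraries lay below all other control libraries. As a share of all RPM, the members made up 0.586% in control replicate 3 and 0.544% in cryptorchid replicate 3, against 1.20 to 1.38% in the remaining control and 0.943 to 1.10% in the remaining cryptorchid libraries.

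Compared with the mean of the other libraries of its group, replicate 3 was lower in 39 of 41 members in control and in 39 of 41 in cryptorchid, with medians of -1.64 and -1.27. Over all 16932 genes tested the same differences had medians of -0.44 and -0.39, and 62.4% of genes were below 0 in each group. The exceptions among the members were *Psme3* and *Psme4*, which encode the nuclear activators PA28γ and PA200 and were 0.59 and 0.15 higher in control replicate 3. Across genes, the difference increased with the merged exon length, with a Spearman coefficient of 0.40 in control and 0.36 in cryptorchid over 41 members and of 0.30 and 0.25 over 16637 genes. These coefficients describe genes within the same libraries. The depth of the replicate-3 libraries, 7603202 and 6800360 reads on genes, was not the lowest of either group. The sum of 6 genes of differentiating spermatogonia was the lowest of its group in both, at 252 and 291 RPM. So were the sums of Sertoli genes, at 20.6 and 16.5 RPM, and of macrophage genes, at 3.62 and 11.2 RPM. The differentiating genes were not all low: *Kit* was at 4.85 log2 RPM in control replicate 3 and highest of its group in cryptorchid replicate 3, at 5.74. What part these had in the low values was not tested, and values without both libraries are given beside the results below.

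**Figure D2:**
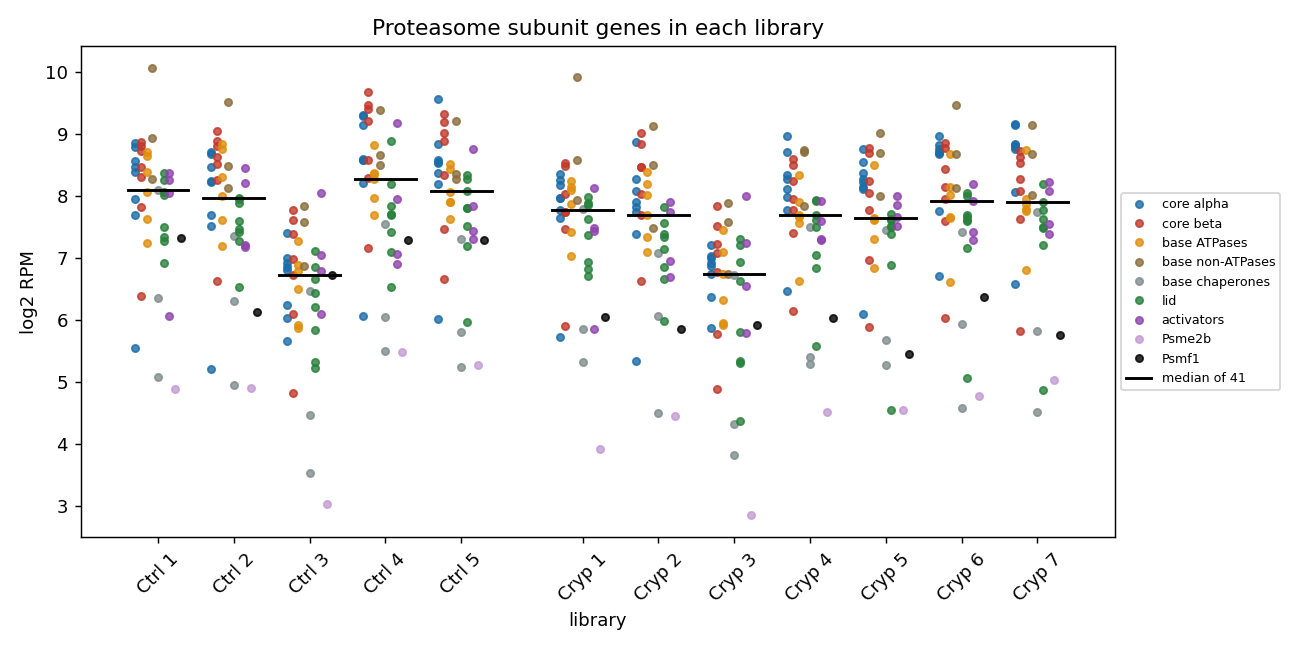
Log2 RPM (y axis) of the 41 tested subunit genes in each of 5 control (Ctrl) and 7 cryptorchid (Cryp) libraries (x axis). Points are genes coloured by subcomplex and black lines are the median of the 41 genes, which is 6.73 in control replicate 3 and 6.75 in cryptorchid replicate 3 and at least 7.65 elsewhere.

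Most of the tested proteasome genes had a lower mean in cryptorchid than in control spermatogonia. In the fit without pairs a single gene passed the test before adjustment, and it was lower. That count is close to the share of all genes called lower, and more members passed with the replicate number as a block, given below. Without that block, the log2 fold change, cryptorchid minus control, had a median of -0.23 over the 41 members. It ranged from -1.03 to 0.42, and 28 of 41 were below 0. Over all genes tested the median was 0.10 and 43.3% were below 0. By the limma test at 2-fold and *P* under 0.05, 1 member was lower, where 2.36% of all genes were called lower. None was higher, where 3.56% of all genes were called higher; quantile normalization changed these shares of all genes to 3.17% lower and 2.65% higher. At *P* under 0.05 without the fold limit, 1 member was lower (3.82% of all genes) and 0 were higher (5.67%). In this fit without pairs, no member passed an adjusted *P* of 0.05, which 0.00591% of all genes passed in each direction. With the replicate number as a block, 35 of 41 were below 0, beside 45.9% of all genes. The lowest adjusted limma *P* of a member was then 0.0117, where 3.35% of all genes were lower at an adjusted *P* under 0.05. At limma *P* under 0.05, 7 of 7 β, 5 of 8 lid, 4 of 6 ATPase and 3 of 8 α genes were lower with the block. None of these was higher, and 10.8% of all genes were lower. The counts over all 41 members with the block are given at the end. The labels do not say whether the numbers mark pairs. In no member did the control and cryptorchid libraries fall into separate ranges, which 0.283% of all genes did with cryptorchid lower and 0.555% with cryptorchid higher. Whether reads were counted by strand is not given in the sources used here, and exons of another gene on the other strand overlap 9 members, *Psma4*, *Psma5*, *Psmb7*, *Psmc3*, *Psmd1*, *Psmd3*, *Psmd9*, *Psmd13* and *Psme1*, whose values are uncertain to that extent.

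Without both replicate-3 libraries the count was different. The median of the members was then -0.35 and 34 of 41 were below 0, beside 45.7% of all genes. At *P* under 0.05, 17 of the 41 were lower, against 6.44% of all genes, and 0 were higher, against 7.02%. At 2-fold, 2 members were lower, *Psmf1* and *Psmd3*, against 2.88% of all genes, and in 8 members every cryptorchid library lay below every control library, against 2% of all genes. No member passed an adjusted *P* of 0.05, which 0.0118% of all genes passed as lower and 0.00591% as higher, and the lowest adjusted *P* was 0.143. Leaving out control replicate 3 alone gave the same counts of 17, 2 and 8 members. The median was -0.57 and 36 of 41 were below 0, beside 49.6% of all genes. Leaving out cryptorchid replicate 3 alone gave 1 lower member and a median of -0.04, with 23 of 41 below 0, beside 39.4% of all genes. The shares of all genes called were not counted with a single library left out, so these counts of calls have no share beside them. Leaving out both libraries was chosen after their values had been seen.

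Between the 2 sets of libraries the counts also differed. Within replicates 1 to 3, the median of the members was -0.18, 36 of 41 were below 0 and 0 members passed *P* under 0.05, against 2.04% of all genes called lower. Within replicates 4 and above, the median was -0.43, 19 members were lower at *P* under 0.05 against 8.5% of all genes, and 1 was higher against 8.83%. With the set as a term in the fit, 3 members were lower against 5.73% of all genes, namely *Psmf1*, *Psme2* and *Psmd7*, and the median was -0.38.

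**Figure D3:**
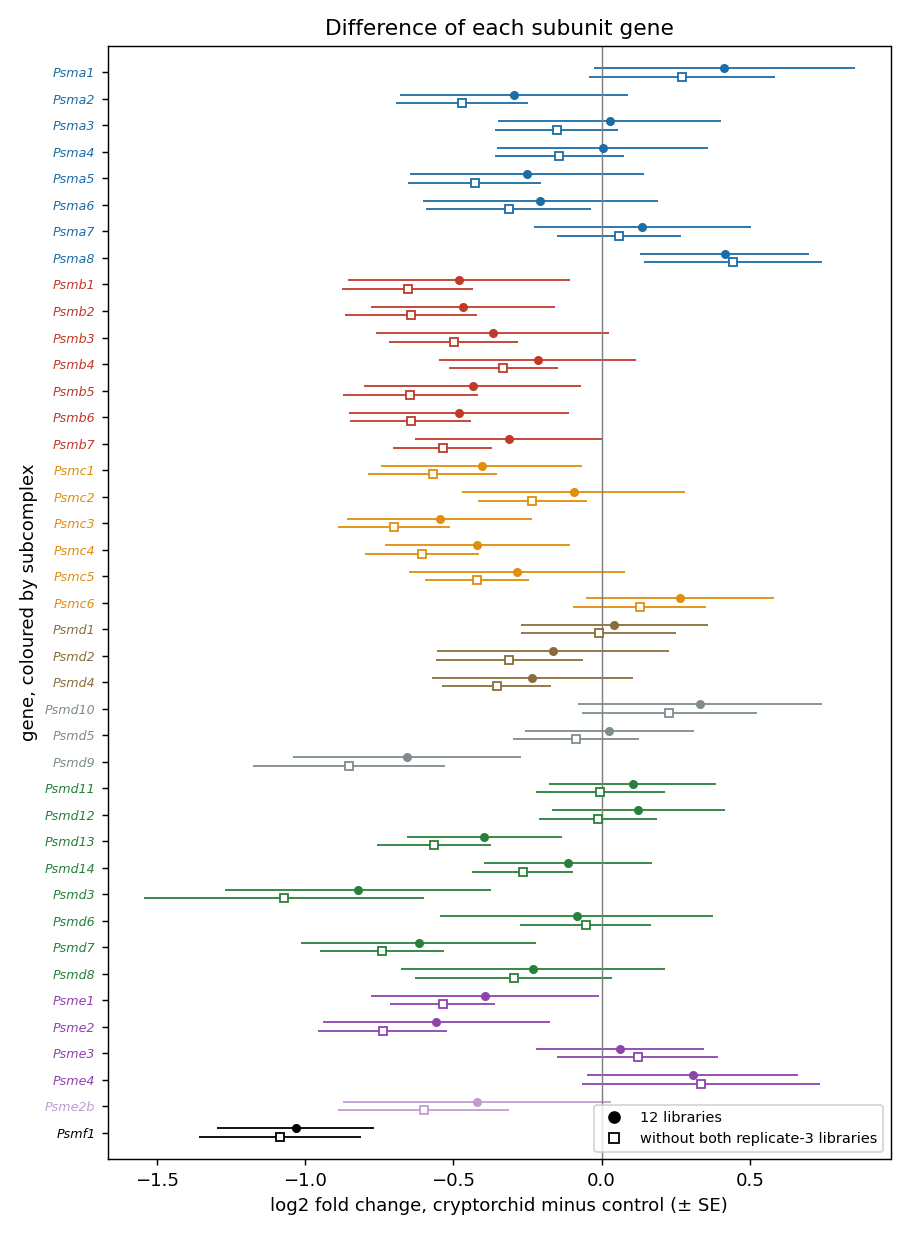
Log2 fold change of each of the 41 tested subunit genes, cryptorchid minus control, with its SE, by subcomplex. Filled circles are fits to all 12 libraries and open squares are fits without both replicate-3 libraries; all 7 tested β genes are below 0 in both, and *Psmf1*, at -1.03 and -1.08, is the lowest.

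Among the core genes, all 7 tested β genes were below 0, with a median of -0.43 and a range of -0.48 to -0.22, and none passed *P* under 0.05 in the 12 libraries. *Psmb6*, which encodes β1 with the caspase-like site, was at 8.47, 8.64, 7.0, 9.22 and 8.89 log2 RPM in control replicates 1 to 5, and its lowest, median and highest values in cryptorchid were 6.77, 8.15 and 8.48. The control libraries other than replicate 3 were high, and the highest cryptorchid library, replicate 2, reached the range of control. The difference was -0.48 ± 0.37 (SE, adjusted *P* = 0.718, limma), and -0.64 ± 0.20 without both replicate-3 libraries (adjusted *P* = 0.214).

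*Psmb5*, which encodes β5 with the chymotrypsin-like site, was at 6.40, 6.64, 4.83, 7.17 and 6.67 log2 RPM in control and at 4.89, 5.90 and 6.64 in the lowest, median and highest cryptorchid library. Most cryptorchid libraries were below the control libraries other than replicate 3, and cryptorchid replicate 2 was level with them. The difference was -0.43 ± 0.37 (adjusted *P* = 0.740), and -0.64 ± 0.23 (adjusted *P* = 0.255) without both replicate-3 libraries. *Psmb7*, which encodes β2 with the trypsin-like site, was at 8.31, 8.52, 6.73, 8.58 and 8.34 in control and at 7.09, 7.79 and 8.09 in cryptorchid. Here all cryptorchid libraries lay below all control libraries but replicate 3, which was the lowest of all 12. The difference was -0.31 ± 0.32 (adjusted *P* = 0.792), and -0.54 ± 0.17 (adjusted *P* = 0.204) without both replicate-3 libraries.

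The β genes without a catalytic site behaved alike in value. *Psmb1*, which encodes β6, was at -0.48 ± 0.37, *Psmb2* at -0.47 ± 0.31 and *Psmb3*, which encodes β3, at -0.37 ± 0.39 (adjusted *P* = 0.719, 0.669 and 0.803). Without both replicate-3 libraries they were at -0.65 ± 0.22, -0.64 ± 0.22 and -0.50 ± 0.22 (adjusted *P* = 0.239, 0.244 and 0.341), past *P* under 0.05. *Psmb4*, which encodes β7, had the smallest difference of the β genes in both fits, at -0.22 ± 0.33 (adjusted *P* = 0.875) in all libraries, and was the one β gene of 7 that did not pass *P* under 0.05 without replicate 3. The median of the β genes was -0.23 within replicates 1 to 3 and -0.85 within replicates 4 and above.

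The α genes lay on both sides of 0. Their median was 0.02, 3 of 8 were below 0 and none passed *P* under 0.05, with or without the replicate-3 libraries, where the median was -0.15. The difference between the α and β medians was not tested. *Psma7*, which encodes α4, was at 8.39, 8.71, 7.01, 8.61 and 8.38 log2 RPM in control and at 7.01, 8.69 and 8.88 in the lowest, median and highest cryptorchid library. The groups covered the same range, and the difference of 0.14 ± 0.37 had a 95% interval of -0.63 to 0.91 (adjusted *P* = 0.930); without both replicate-3 libraries it was 0.059 ± 0.21. The lowest of the α differences was that of *Psma2*, which encodes α2, at -0.30 ± 0.38 (adjusted *P* = 0.846), and -0.47 ± 0.22 without both replicate-3 libraries.

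*Psma8*, for the α4s of meiotic and later germ cells, was at 5.56, 5.22, 5.66, 6.07 and 6.03 log2 RPM in control and at 5.34, 6.11 and 6.72 in cryptorchid. In cryptorchid, 4 of 7 libraries were above all control libraries, and the other 3 were among them. The difference was the highest of the members, at 0.42 ± 0.28 (adjusted *P* = 0.677), and 0.44 ± 0.30 without both replicate-3 libraries. Within a library, the log2 ratio of *Psma8* to *Psma7* was -2.51 ± 0.78 in control (SD, n = 5) and -2.23 ± 0.71 in cryptorchid (n = 7), a difference of 0.28 with an exact two-sided permutation *P* of 0.535. It was 0.38 (exact permutation *P* = 0.310) without both replicate-3 libraries, in which the ratio was highest, at -1.35 and -1.12. Spermatocyte and spermatid genes, given above, both had summed levels that overlapped between the groups. Of 9 spermatid genes, 4 were lower in cryptorchid at limma *P* under 0.05. The part of spermatocyte and spermatid genes in this ratio was not tested.

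Of the 6 ATPase genes of the base, 5 were below 0, with a median of -0.34. *Psmc3*, which encodes Rpt5, was at 8.71, 8.84, 7.29, 8.83 and 8.53 log2 RPM in control and at 7.10, 7.96 and 8.40 in the lowest, median and highest cryptorchid library. Without replicate 3 the groups had separate ranges. The difference was -0.55 ± 0.31 (adjusted *P* = 0.605), and -0.70 ± 0.19 (adjusted *P* = 0.159) without both replicate-3 libraries. *Psmc1*, *Psmc4* and *Psmc5*, which encode Rpt2, Rpt3 and Rpt6, passed *P* under 0.05 without them but not in the 12 libraries, at -0.57, -0.61 and -0.42. *Psmc6*, which encodes Rpt4, went the other way in value, at 0.26 ± 0.32 (adjusted *P* = 0.832), and 0.13 ± 0.23 without both replicate-3 libraries.

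None of the 3 other base subunits passed *P* under 0.05. *Psmd1*, which encodes the scaffold Rpn2, was at 0.04 ± 0.32 (adjusted *P* = 0.977) and its sign changed with the setting. *Psmd4*, which encodes the ubiquitin receptor Rpn10, was at 8.28, 8.49, 6.88, 8.67 and 8.28 log2 RPM in control and at 6.75, 8.01 and 8.50 in cryptorchid. Its groups overlapped, with a difference of -0.23 ± 0.34 (adjusted *P* = 0.865), and -0.35 ± 0.18 without both replicate-3 libraries. Of the assembly chaperones of the base, *Psmd9* was at 6.37, 6.31, 4.47, 6.06 and 5.81 in control and at 4.33, 5.27 and 6.06 in cryptorchid. It had a difference of -0.66 ± 0.39 (adjusted *P* = 0.617), and -0.85 ± 0.32 (adjusted *P* = 0.276) without both replicate-3 libraries. *Psmd10*, which encodes gankyrin, was at 0.33 ± 0.41 (adjusted *P* = 0.838) and *Psmd5*, which encodes S5b, at 0.03 ± 0.29 (adjusted *P* = 0.985); without both replicate-3 libraries they were at 0.23 ± 0.30 and -0.086 ± 0.21.

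In the lid, 6 of 8 genes were below 0, with a median of -0.17. *Psmd3* was at 6.92, 7.43, 5.23, 6.54 and 5.98 log2 RPM in control. In cryptorchid replicates 1 to 7 it was at 6.95, 6.85, 5.31, 5.58, 4.55, 5.07 and 4.87. Cryptorchid replicates 1 and 2 were level with control, and replicates 4 and above were below the control libraries other than replicate 3. The difference was -0.82 ± 0.45 (adjusted *P* = 0.591), and -1.07 ± 0.47 (adjusted *P* = 0.345) without both replicate-3 libraries.

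*Psmd7*, for Rpn8, the partner of the deubiquitinase, was at 8.02, 7.98, 6.44, 8.90 and 8.35 in control and at 5.82, 7.50 and 7.82 in cryptorchid. All cryptorchid libraries lay below all control libraries but replicate 3. The difference was -0.62 ± 0.40 (adjusted *P* = 0.656), and -0.74 ± 0.21 (adjusted *P* = 0.171) without both replicate-3 libraries. *Psmd14*, which encodes the deubiquitinase Rpn11 itself, was at 8.07, 7.90, 6.66, 7.84 and 8.09 in control and at 6.94, 7.63 and 8.01 in cryptorchid. It differed by -0.11 ± 0.28, with a 95% interval of -0.71 to 0.48 (adjusted *P* = 0.925), and by -0.27 ± 0.17 without both replicate-3 libraries. *Psmd13*, which encodes Rpn9, was at -0.40 ± 0.26 (adjusted *P* = 0.667), and at -0.56 ± 0.19 (adjusted *P* = 0.240) without both replicate-3 libraries. *Psmd12*, for Rpn5, had the highest lid value, at 0.12 ± 0.29 (adjusted *P* = 0.920), and -0.012 ± 0.20 without both replicate-3 libraries.

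*Psme1* and *Psme2* encode the α and β subunits of the cytoplasmic, interferon-inducible PA28. *Psme2* was at 8.38, 8.45, 6.79, 9.18 and 8.77 log2 RPM in control and at 6.56, 7.93 and 8.24 in the lowest, median and highest cryptorchid library. All cryptorchid libraries were below all control libraries other than replicate 3. The difference was -0.56 ± 0.38 (adjusted *P* = 0.677), and -0.74 ± 0.22 (adjusted *P* = 0.184) without both replicate-3 libraries.

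*Psme1* was at 8.05, 8.21, 6.10, 7.96 and 7.84 in control and at 5.80, 7.40 and 7.74 in cryptorchid, again with all cryptorchid libraries below all control libraries other than replicate 3. It differed by -0.39 ± 0.38 (adjusted *P* = 0.780), and by -0.54 ± 0.18 (adjusted *P* = 0.229) without both replicate-3 libraries. The retrogene copy *Psme2b* shares sequence with *Psme2*, so reads may have been split between them, and it was at -0.42 ± 0.45 (adjusted *P* = 0.804), or -0.60 ± 0.29 without both replicate-3 libraries. *Psme3* was at 8.27, 7.22, 8.06, 7.07 and 7.32 in control and at 6.95, 7.60 and 8.14 in cryptorchid, with a difference of 0.06 ± 0.28 (adjusted *P* = 0.960). *Psme4* was at 6.07, 7.18, 7.05, 6.91 and 7.45 in control and at 5.86, 7.32 and 8.09 in cryptorchid, with a difference of 0.31 ± 0.36 (adjusted *P* = 0.821). In both of these genes the groups overlapped over most of their range, and replicate 3 was not low; without both replicate-3 libraries the differences were 0.12 ± 0.27 and 0.34 ± 0.40.

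*Psmf1*, which encodes PI31, an inhibitor of the core particle in vitro that also acts as an adaptor for its transport, was the one member that passed *P* under 0.05 in all libraries. It spans 151715812 to 151744186 of chromosome 2 on the minus strand of GRCm38 and was counted with 150 to 3929 reads per library. In control replicates 1 to 5 it was at 7.33, 6.13, 6.73, 7.29 and 7.30 log2 RPM. In cryptorchid replicates 1 to 7 it was at 6.06, 5.87, 5.92, 6.04, 5.46, 6.38 and 5.77. Control replicate 2 was low, at the level of the cryptorchid libraries, and the other 4 control libraries were above all 7 cryptorchid libraries.

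Across the groups *Psmf1* fell by 1.03 ± 0.26 on the log2 scale (adjusted *P* = 0.215, limma), with a 95% interval of -1.59 to -0.48. The difference was -0.79 ± 0.46 within replicates 1 to 3, where it did not pass *P* under 0.05. It was -1.38 ± 0.26 within replicates 4 and above (adjusted *P* = 0.0645), -1.07 with the set as a term (adjusted *P* = 0.108) and -1.08 without both replicate-3 libraries (adjusted *P* = 0.143). Leaving out control replicate 1, 4 or 5 or cryptorchid replicate 5 took it below the 2-fold limit, at -0.94, -0.95, -0.95 and -0.95. Relative to the median of the members in each library it was -0.82 ± 0.32 (adjusted *P* = 0.364). The summed spermatid genes had their lowest control value, 511 RPM, in control replicate 2 and their highest cryptorchid value, 1854 RPM, in cryptorchid replicate 6, the libraries in which *Psmf1* was lowest in control and highest in cryptorchid. Their part in the difference was not tested.

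**Figure D4:**
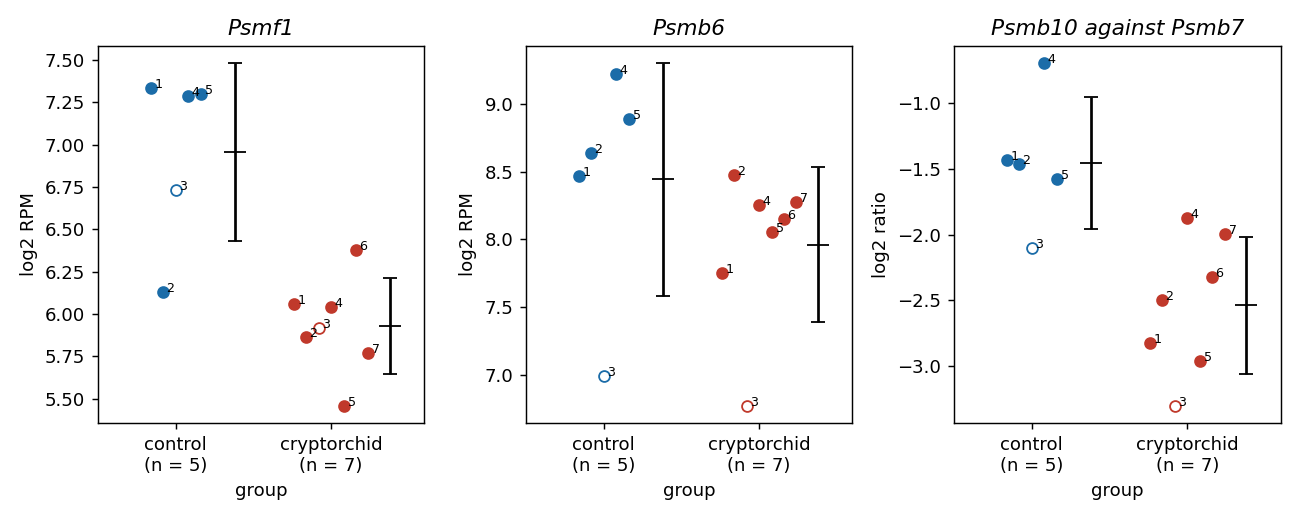
Values of each library, numbered by replicate, for *Psmf1* and *Psmb6* (log2 RPM) and for the log2 ratio of *Psmb10* to *Psmb7*, in control (blue) and cryptorchid (red). Open circles are replicate 3 and bars are mean ± SD; in *Psmf1* only control replicate 2, at 6.13, lies among the cryptorchid libraries.

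Within the groups, the members varied together mainly through the replicate-3 libraries. After subtraction of the group means, the 820 pairs of members had a median Pearson coefficient of 0.77 over the 12 libraries, and 91.8% were positive; the pairs share libraries and scaling. Over the 10 libraries other than replicate 3 the median was 0.13 and 59.6% were positive. In the 12 libraries, *Psme3* at -0.49, *Psme4* at 0.04, *Psmf1* at 0.25, *Psma8* at 0.29 and *Psmd3* at 0.31 had the lowest coefficients with the median of the other members, and *Psmc2*, for Rpt1, at 0.99 and *Psma5* at 0.97 had high ones. Without replicate 3, *Psmc2* and *Psma5* were still high, at 0.84 and 0.88, but *Psma8* was at 0.82 and *Psme4* at 0.53, and the lowest were *Psmd9* at -0.79, *Psme1* at -0.69, *Psmc1* at -0.65 and *Psmd3* at -0.63.

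Immunoproteasome subunits replace the catalytic β subunits in immune cells and after exposure to interferon, and each was compared with the subunit it replaces within a library. The log2 ratio of *Psmb10*, for β2i, to *Psmb7* was -1.43, -1.46, -2.10, -0.69 and -1.58 in control replicates 1 to 5. In cryptorchid replicates 1 to 7 it was -2.82, -2.50, -3.30, -1.87, -2.96, -2.32 and -1.99. Control replicate 3 lay below cryptorchid replicates 4 and 7, and the other control libraries were above all cryptorchid libraries. The means were -1.45 ± 0.50 (SD, n = 5) and -2.54 ± 0.52 (n = 7), and the difference of -1.08 had an exact two-sided permutation *P* of 0.00631, or 0.0253 adjusted over the 4 ratios tested. With one library left out, the adjusted exact *P* ranged from 0.0242 to 0.0727, and it was above 0.05 without control replicate 1, 2, 4 or 5 or cryptorchid replicate 1, 2, 5 or 6.

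Within replicates 1 to 3 the difference in this ratio was -1.21 and within replicates 4 and above -1.15, with exact permutation *P*-values of 0.1 and 0.0667 that are the smallest these designs allow. Permutation within the sets gave -1.18 with an exact *P* of 0.00333, the smallest it allows, and leaving out both replicate-3 libraries gave -1.12 with an exact *P* of 0.00952, or 0.0381 adjusted over the 4 ratios. As a single gene *Psmb10* was at -1.40 ± 0.48 (adjusted *P* = 0.366, limma). Macrophage genes summed to 3.62 to 23.8 RPM in control and 11.2 to 36.6 RPM in cryptorchid, and lymphocyte genes to at most 9.37 RPM. Of 9 spermatid genes, 4 were lower in cryptorchid at limma *P* under 0.05, with summed levels that overlapped between the groups. The part of these cell types in the ratio was not tested.

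For the other immunoproteasome subunits the ratio did not pass the test. The ratio of *Psmb9*, for β1i, to *Psmb6* was -4.80 ± 0.37 in control (SD, n = 5) and -4.62 ± 0.55 in cryptorchid (n = 7), a difference of 0.18 (exact permutation adjusted *P* = 0.535), and of 0.20 without both replicate-3 libraries. *Psmb8*, for β5i, had 2 to 15 reads in the control libraries and 0 to 133 in the cryptorchid libraries. Scaled to depth, it was highest in cryptorchid replicates 2, 5 and 1, at 3.57, 2.62 and 2.19 log2 RPM. Cryptorchid replicates 6 and 7 had no reads. The ratio to *Psmb5* differed by 1.78 (exact permutation adjusted *P* = 0.268), with the libraries at 0 reads set at the floor of the table, by 2.05 without both replicate-3 libraries, and by 1.41 when 1 RPM was added to each value (exact permutation *P* = 0.0480, or 0.0960 adjusted over the 4 ratios). Exons of *Gm20496* overlap *Psmb8* and exons of *Tap1* overlap *Psmb9* on the other strand.

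Few of the genes that build, supply and control the proteasome passed the test. Of the 43 tested, 0 were higher at *P* under 0.05 and 2 were lower, against the 5.67% and 3.82% of all genes given above, and none passed an adjusted *P* of 0.05. Of 16 assembly and associated factors, 0 passed, with a median of 0.04. Among them *Pomp*, which encodes the maturation factor of the core, was at -0.17 ± 0.35 (adjusted *P* = 0.905), *Adrm1*, which encodes the ubiquitin receptor Rpn13, at -0.58 ± 0.32 (adjusted *P* = 0.603) and *Usp14*, which encodes a deubiquitinase bound to the base, at 0.16 ± 0.33 (adjusted *P* = 0.908). Without both replicate-3 libraries these were at -0.32, -0.74 and 0.14, and 6 of the 43 were lower, against 6.44% of all genes, and 1 was higher, against 7.02%.

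Of 10 shuttle and extraction factors, 0 passed, with a median of -0.12, and of 6 ubiquitin and E1 enzyme genes 0 passed, with a median of -0.20. In the list of 8 transcription factors *Mafk*, which encodes a small Maf partner of Nrf1 and Nrf2, was lower. It was at 5.70, 4.95, 4.46, 4.47 and 3.89 log2 RPM in control and at 1.62, 3.36 and 4.74 in the lowest, median and highest cryptorchid library. The low cryptorchid libraries were replicates 4 and above, and the difference was -1.22 ± 0.54 (adjusted *P* = 0.489). Without both replicate-3 libraries it was -1.46, within replicates 4 and above -1.55, and within replicates 1 to 3, where it did not pass *P* under 0.05, -0.43. *Mafk* also did not pass when control replicate 1 or 2 or cryptorchid replicate 4, 5, 6 or 7 was left out, at -0.97, -1.15, -1.15, -1.20, -0.91 and -1.05, nor with voom on recovered reads, the replicate block or centring on the members, at -1.01, -0.65 and -1.01, so 10 of its 26 alternatives did not pass. *Nfe2l1* itself was at -0.08 ± 0.22, with a 95% interval of -0.54 to 0.38 (adjusted *P* = 0.930), and -0.13 without both replicate-3 libraries.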

How the data were processed

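The deposited table holds log2 RPM per gene. Per the labels and the study's methods, the authors checked reads with FastQC 0.11.8, trimmed them with Trim Galore 0.6.6, mapped them to mm10 with HISAT2 2.1.0 and counted reads on protein-coding genes with SeqMonk. The authors' count of reads behind each value was recovered from the steps of the log2 values, with a gene without reads at 0.9 reads, and all values under 1000 reads came out whole within 0.1. Recovered read numbers carry counting error only, while the 95% intervals come from the SE of the fits and cover the spread between libraries. Gene lengths are from GENCODE vM21.

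Genes with a log2 mean RPM above -1 were fitted with limma 3.58.1 in R 4.3.3 on log2 values, two-sided, with Benjamini-Hochberg adjustment over 16932 genes, after the step had been tested on simulated data. Ratios within a library were tested by exact permutation over the 792 assignments of 5 and 7 libraries. The main calls were at 2-fold and *P* under 0.05. Named were members that passed *P* under 0.05 or did not overlap, catalytic and regulatory subunits, the 3 highest and 3 lowest per length, the extremes of each subcomplex, and those that passed without replicate 3, which were added after their values had been seen. Members, lists and tests were chosen with earlier results of these data known. The alternatives covered normalization, pseudocounts of 0.1 and 1 RPM, filters, library weights, voom on recovered reads, the replicate number, the sets of replicates, and leaving out each library.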

Additional observations from a re-analysis of the deposited data

Results flagged for a closer look

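Within each group, the lowest or highest library was compared with its neighbour by Dixon's criterion, which chance meets in about 1 of 20 groups. Over the 41 members in both groups it was met in 33 of 82 tests, and in all 33 the library was replicate 3 at the low end. The members share the same libraries and varied together, so the 82 tests are not independent and their number cannot be set against chance. The same held for the median of the members, at 6.73 log2 RPM in control and 6.75 in cryptorchid replicate 3, and for their share of all RPM, at 0.586% and 0.544%. Among the named members, the log2 RPM of control replicate 3 met it in *Psma2* at 6.93, *Psma7* at 7.01, *Psmb7* at 6.73, *Psmc3* at 7.29, *Psmc6* at 6.90, *Psmd4* at 6.88, *Psmd10* at 3.53, *Psmd12* at 6.21, *Psmd14* at 6.66, *Psme1* at 6.10 and *Psme2b* at 3.04. That of cryptorchid replicate 3 met it in *Psma5* at 6.88, *Psmb4* at 7.52, *Psmb6* at 6.77, *Psmb7* at 7.09, *Psmd4* at 6.75, *Psmd14* at 6.94 and *Psme1* at 5.80. The cause was not tested.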

How the results depend on the processing

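With all 12 libraries 1 member was lower at *P* under 0.05, and that count depended on the libraries used. It was 2 with median centring (4.91% of all genes were lower), 14 with library weights (8.92%), 3 with the set of replicates as a term (5.73%), 0 in replicates 1 to 3 (2.04%), 19 lower and 1 higher in replicates 4 and above (8.5% and 8.83%), and 17 without both replicate-3 libraries (6.44%). Centring on the median of the members, also chosen after seeing the data, gave 1 higher, *Psmc6* (9.71% of all genes), and left 0 members at 2-fold (1.32% lower). At 2-fold and *P* under 0.05 there were 2 lower members with library weights (4.15% of all genes) and without both replicate-3 libraries (2.88%), 3 in replicates 4 and above (4.16%) and 0 in replicates 1 to 3 (2.04%). Members without overlap were 1 with median centring (0.425% of all genes), quantile normalization (0.461%) or replicates 1 to 3 (3.58%), 8 without both replicate-3 libraries (2%), and 22 lower and 3 higher in replicates 4 and above (14.1% each). Library weights gave 1 lower member at an adjusted *P* under 0.05 (1.32% of all genes). Leaving out each library gave 1 to 17 lower members at *P* under 0.05, 0 to 2 at 2-fold and 0 to 8 without overlap, with the highest counts without control replicate 3. There were 2 at *P* under 0.05 without cryptorchid replicate 1 and 3 without cryptorchid replicate 2. The shares of all genes were not counted in these settings.

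The related lists had 2 lower and 0 higher genes with all libraries. They had 1 higher with centring (4.94% of all genes), quantile normalization (4.78%) and the set term (5.64%), 6 lower and 2 higher with weights (8.92% and 11.1%), 1 lower with voom (4.22%), 1 lower in replicates 1 to 3 (2.04%), 7 lower and 2 higher in replicates 4 and above (8.5% and 8.83%), 6 lower and 1 higher without both replicate-3 libraries (6.44% and 7.02%), and 1 lower and 2 higher when centred on the members (1.72% and 9.71%). Leaving out each library gave 1 to 6 lower and 0 to 2 higher, where the shares of all genes were not counted. The ratio of *Psmb10* to *Psmb7* was -1.21 and -1.15 within the sets, where the test cannot pass, and -1.25 to -0.90 leaving out each library. That of *Psmb8* to *Psmb5* was 1.41 with 1 RPM added, with an exact *P* of 0.0480 that is 0.0960 when adjusted over the 4 ratios. Lengths of the longest transcript moved *Psmf1* to 4.43 and *Psmd9* to 4.02 log2 RPM per kb.

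The labels number the replicates alike in both groups, and whether the numbers mark pairs from the same animal is not given. Libraries with the same number had correlations of 0.35, 0.36, 0.41, 0.25 and 0.05 for replicates 1 to 5. Control replicates 1 to 4 each correlated best with the cryptorchid library of the same number. Replicate 5 of control correlated best with cryptorchid replicate 7, at 0.27, so not all numbers deviated together. With the replicate block, 25 members were lower at *P* under 0.05 (10.8% of all genes) and 8 at an adjusted *P* under 0.05 (3.35%). In the related lists 9 genes were lower (10.8% of all genes) and 3 higher (11.4%) at *P* under 0.05. The ratio of *Psmb10* to *Psmb7* was -1.24 with the block, where the exact test cannot go below 0.0625. The block gave -0.027 for *Psma7*, -0.089 for *Psmd1*, -0.049 for *Psmd5* and -0.00075 for *Psme4*.

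Other values near 0 also changed sign, in log2 fold change. *Psmd1* was at -0.024 with median centring, -0.053 with the set term, -0.33 in replicates 1 to 3 and -0.0096 without both replicate-3 libraries. *Psmd5* was at -0.041, -0.015, -0.11 and -0.086 in these settings and at -0.00889 with quantile normalization. *Psme3* was at -0.00470 with median centring and -0.15 in replicates 1 to 3. *Psmd12* was at -0.040 with weights, -0.031 in replicates 4 and above and -0.012 without both replicate-3 libraries. In replicates 1 to 3, *Psma7* was at -0.084, *Psme4* at -0.16, *Usp14* at -0.19 and *Psmb9* at 0.00189. Centred on the members, *Psmd14* was at 0.093, *Pomp* at 0.033 and *Nfe2l1* at 0.12. Leaving out each library gave -0.14 to 0.20 for *Psmd1*, -0.20 to 0.21 for *Psmd5*, -0.067 to 0.23 for *Psme3*, -0.17 to 0.36 for *Psma7*, -0.0022 to 0.56 for *Psmd10*, -0.13 to 0.24 for *Psmd12*, -0.017 to 0.36 for *Usp14*, -0.48 to 0.0035 for *Pomp* and -0.52 to 0.015 for *Psma6*.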
